A study of Mus musculus with 6 samples.

Results

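The genes described here mark the way from the oligodendrocyte precursor cell to the young, myelin-forming oligodendrocyte. They were 9 genes taken by symbol, Pdgfra, Cspg4, Olig1, Olig2, Sox10, Gpr17, Enpp6, Bmp4 and Bcas1. All 9 were found among the 21006 gene identifiers of the mRNA data, and the rule that picks them uses the symbol alone. Their mRNA was measured in prefrontal cortex of wild type male C57BL/6 mice, aged 18 months by the age label, while the sample titles carry an unexplained 17M. The PND group (postoperative neurocognitive disorder, n = 3) had isoflurane anesthesia followed by exploratory laparotomy, an operation in which the abdomen is opened and its organs inspected. The CON group (n = 3) was untreated. Per the methods of the study, animals of both groups went through behavioral tests, and the tissue was taken after the last maze session under isoflurane and saline perfusion, so isoflurane at the end was shared by PND and CON. With no group given anesthesia alone, anesthesia and surgery cannot be told apart. Each group's samples were tissues picked at random from its animals. The p-values set the group difference against the spread between these samples, which the test draws toward that of other genes of like level.

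Oligodendrocyte precursors stay in the adult cortex, divide slowly, and give rise to new oligodendrocytes throughout life. Signalling through the PDGF receptor keeps them in the dividing state, and the transcription factors OLIG2 and SOX10 hold the lineage identity. When a precursor commits to differentiation it loses the PDGF receptor, passes through a short GPR17-positive stage and then turns on early markers such as ENPP6 before the bulk of myelin genes. Bone morphogenetic proteins such as BMP4 are known to hold precursors back from differentiation. In a piece of whole tissue, fewer cells of a type and less RNA per cell cannot be told apart.

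No member of the group passed the test between PND and CON. The values are FPKM (fragments scaled by exon length and by sequencing depth), and the groups were compared with limma on log2(FPKM + 0.1) over 18185 genes. The cut-off of the study, an absolute log2 fold change above 1 together with an unadjusted p below 0.05, was passed by 0 of the 9 members, against 1.33% of all genes tested. An unadjusted p below 0.05 was reached by 0 of 9 members, against 3.13% of all genes. All 9 members were above the filter of a mean of 0.1 FPKM. The point estimates were higher in PND for 3 members and lower for 6, the median log2 fold change was -0.03, and the median over all genes was 0.01. The median absolute log2 fold change was 0.099 for the members and 0.16 for all genes. Enpp6 was the one member in which the values of the groups did not overlap, with all 3 PND samples below all 3 CON samples. Such a full separation in that direction was found for 3.88% of all genes, and in either direction for 7.66%. With 3 samples against 3, the smallest p an exact two-sided permutation test can give is 0.1, so a single gene cannot pass 0.05 on its own ranks.

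The libraries were of similar depth. From the steps in which low FPKM values move, the effective depth was estimated at between 7210797 and 9383374 fragments per sample, and fragment numbers given below are estimates of this kind. The samples differ among themselves in how the level follows the GC content of a transcript, in both groups, and values of this kind are given beside Pdgfra, Cspg4, Olig1, Olig2, Sox10 and Enpp6. The labels named no batch. Neuron markers were present in every sample, which does not tell one brain region from another. Slc17a7, the vesicular glutamate transporter of cortical excitatory neurons, was at 23.6 to 73.8 FPKM in CON and 27.7 to 58.1 FPKM in PND, and Gad2, an enzyme of inhibitory neurons, at 67.4 to 126 FPKM and 94.1 to 126 FPKM.

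**Figure D1:**
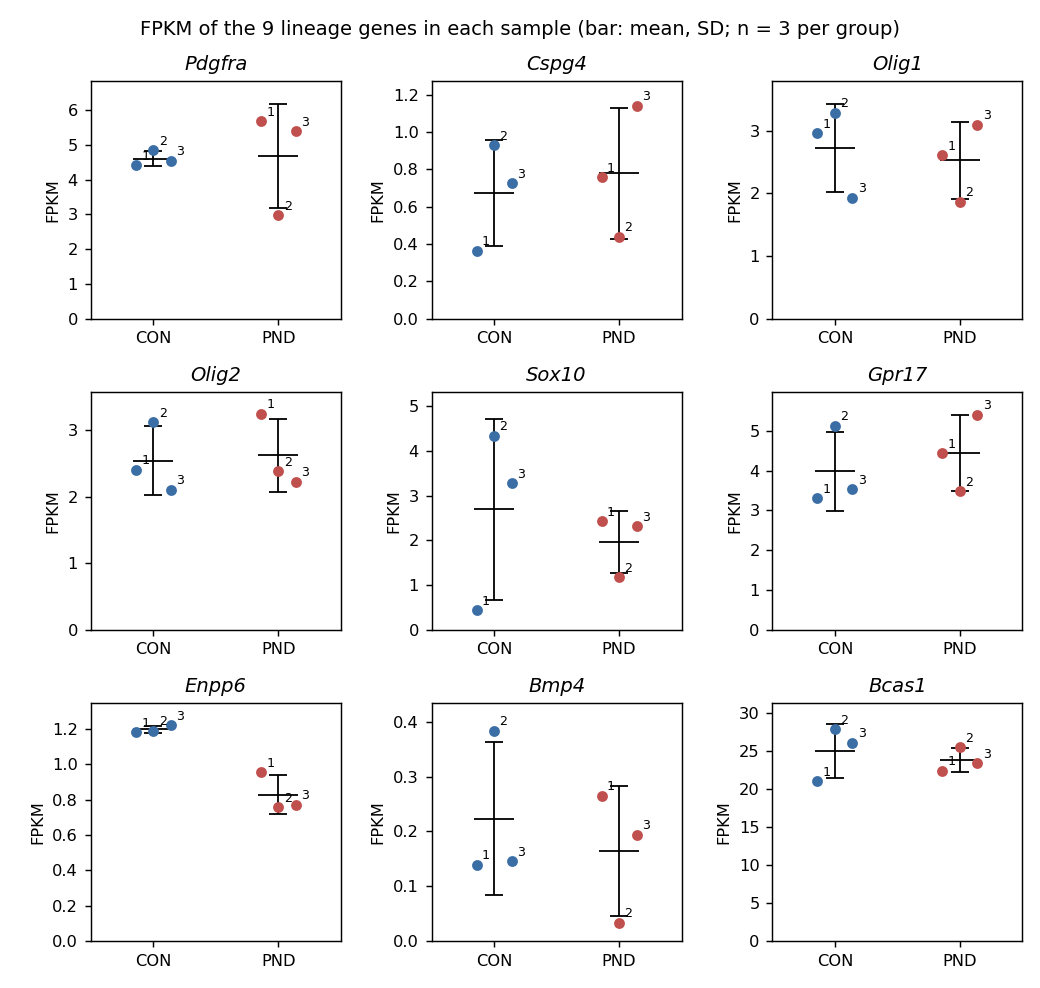
FPKM (vertical axes, linear, from 0) of the 9 genes in each CON (blue) and PND (red) sample. Numbers beside the points are replicate numbers and bars give mean and SD of 3 samples. The Enpp6 points of PND (0.758 to 0.956 FPKM) all lie under those of CON (1.18 to 1.22 FPKM), and Sox10 in CON replicate 1 (0.443 FPKM) lies apart from the other CON samples.

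Per kilobase of exon, the members spanned a wide range of levels. Bcas1 was highest with 24.4 ± 2.55 FPKM (SD over all 6 samples), 5.25 times the level of Pdgfra at 4.65 ± 0.956 FPKM, and the ranges of these neighbours did not overlap. Pdgfra and Gpr17 (4.22 ± 0.909 FPKM) did not differ beyond their spread, Pdgfra being the higher in 3 of 6 samples. Gpr17 lay above Olig1 (2.63 ± 0.607 FPKM) in 6 of 6 samples, with a lowest value of 3.31 FPKM just over the highest of Olig1 at 3.29 FPKM. Olig1, Olig2 (2.58 ± 0.479 FPKM) and Sox10 (2.33 ± 1.41 FPKM) were not separated from each other. Enpp6 followed with 1.01 ± 0.215 FPKM and Cspg4 with 0.726 ± 0.291 FPKM, and the ranges of Sox10 and Enpp6 and of Enpp6 and Cspg4 overlapped. Bmp4 was lowest with 0.194 ± 0.12 FPKM. It was below Cspg4 in 6 of 6 samples, but its highest sample reached the lowest of Cspg4.

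The receptors and surface molecules of the precursor came first. Pdgfra encodes the alpha receptor for platelet-derived growth factor, which receives the mitogen signal of the precursor (ENSMUSG00000029231, chromosome 5, 75152292 to 75198215 in GRCm38). It stood at 5.69, 2.97 and 5.39 FPKM in PND replicates 1 to 3 and at 4.42, 4.85 and 4.55 FPKM in CON replicates 1 to 3. The CON samples lay close together, and the PND samples fell on either side of them, with replicate 2 as the low one. The log2 fold change was -0.03 (SE 0.25, 95% interval -0.63 to 0.56), with an unadjusted p of 0.903. Without PND replicate 2 the remaining PND samples were both above CON, with a log2 fold change of 0.26 and an unadjusted p of 0.144. The low value went with about 235 fragments. Of the 2702 genes whose GC content lay within 2 percentage points of the 48.1% of Pdgfra, 2.89% were as low in that library relative to their own mean.

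Cspg4 encodes the NG2 proteoglycan, the classical surface marker of the precursor, which pericytes of the vessel wall carry as well (ENSMUSG00000032911, chromosome 9, 56865033 to 56899870). Its values were 0.758, 0.44 and 1.14 FPKM in PND and 0.365, 0.93 and 0.725 FPKM in CON. The groups overlapped over most of their range, and the highest sample was 3.12 times the lowest. This gave a log2 fold change of 0.18 (SE 0.43, interval -0.83 to 1.19), with an unadjusted p of 0.69. Both low samples, CON replicate 1 and PND replicate 2, were also low for other GC-rich transcripts. In those libraries Cspg4 deviated from its mean by -0.75 and -0.53 on the log2 scale, and the median over 812 genes of like GC content deviated by -0.57 and -0.30. The cause of the low Cspg4 values was not tested.

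Pericytes and fibroblasts carry Cspg4 and Pdgfra respectively, so their markers were read beside these genes. The summed level of 8 pericyte markers was 38.7 to 43.7 FPKM in PND and 35.6 to 47.8 FPKM in CON, with the lowest sum in CON replicate 1, where Cspg4 was lowest too. Higd1b was the 1 of the 8 that passed the cut-off, with 0.735, 1.06 and 0.594 FPKM in PND against 0.248 and 0.456 FPKM and a listing at 0 in CON (unadjusted p 0.0298, limma adjusted p 1). It no longer passed without PND replicate 1, PND replicate 2 or CON replicate 3, nor with a pseudocount of 1 or 0.01, and it was not among the genes of at least 1 FPKM, each of which left 0 of the 8. Over the 8 pericyte markers 4 were higher and 4 lower in PND, with a median log2 fold change of 0.045. Kcnj8, a potassium channel of pericytes, had a log2 fold change of 0.48 and an unadjusted p of 0.268. The 8 fibroblast and meningeal markers summed to 8.83 to 15.8 FPKM in PND and 9.72 to 14.2 FPKM in CON, and 0 of them reached an unadjusted p below 0.05. The smallest p-values among them were those of Lum (log2 fold change -0.44, unadjusted p 0.193) and Col3a1 (-0.54 and 0.295). What part these cells had in the Cspg4 and Pdgfra levels was not tested.

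None of the lineage transcription factors passed the test. Olig1 and Olig2 are neighbouring genes on chromosome 16 that encode basic helix-loop-helix factors, OLIG2 being needed to specify the lineage and OLIG1 acting in later maturation. Olig2 (ENSMUSG00000039830, 91225457 to 91228677) stood at 3.25, 2.39 and 2.23 FPKM in PND and 2.41, 3.12 and 2.11 FPKM in CON. The samples of both groups were intermixed, and the log2 fold change was 0.04 (SE 0.23, interval -0.50 to 0.58, unadjusted p 0.869). With correction for GC content the sign turned, to -0.06 with an unadjusted p of 0.835. In PND replicate 3 Olig2 deviated by -0.19 from its mean, where 983 genes of like GC content had a median of 0.34 and 3.56% of them were as low. Olig1 (ENSMUSG00000046160, 91269772 to 91271933) stood at 2.61, 1.87 and 3.1 FPKM in PND and 2.96, 3.29 and 1.93 FPKM in CON. Each group held a low Olig1 sample, PND replicate 2 and CON replicate 3. The log2 fold change was -0.10 (SE 0.27, interval -0.74 to 0.54, unadjusted p 0.728).

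Sox10 encodes the SoxE factor that acts with OLIG2 and later drives myelin genes (ENSMUSG00000033006, chromosome 15, 79154908 to 79165240). It stood at 2.42, 1.17 and 2.32 FPKM in PND and at 0.443, 4.34 and 3.28 FPKM in CON. CON replicates 2 and 3 were the highest samples of all and CON replicate 1 was the lowest, so that the CON values spanned 9.81-fold. The log2 fold change was -0.03 (SE 0.76, interval -1.81 to 1.75, unadjusted p 0.972), an interval that holds a doubling and a halving alike. Without CON replicate 1 the groups no longer overlapped, with a log2 fold change of -0.97 and an unadjusted p of 0.0298. Leaving out either of the other CON samples gave positive values, 0.54 without replicate 2 and 0.35 without replicate 3, with unadjusted p-values of 0.501 and 0.709.

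The low Sox10 value rested on about 10 fragments, against 108 and 72 in the other CON samples. Its exact Poisson 95% interval, which covers counting error only, ran from 4.8 to 18.4 fragments, or 0.21 to 0.806 FPKM. The Sox10 transcript is GC-rich (61.8%), and CON replicate 1 was low for such transcripts in general. The median of 330 genes of like GC content deviated by -0.62 on the log2 scale there, and Sox10 by -1.88. Of these genes 6 (1.82%) were as low as Sox10. In CON replicate 3 Sox10 stood out on the high side, with a deviation of 0.76 against a median of -0.03, and 98.2% of these genes were as low or lower. Olig1, of nearly the same GC content (61.1%), went the other way in CON replicate 1 with a deviation of 0.20, above 96.7% of the 430 genes of its GC range. The fit with GC correction gave a log2 fold change of -0.14 and an unadjusted p of 0.8 over all 6 samples.

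**Figure D2:**
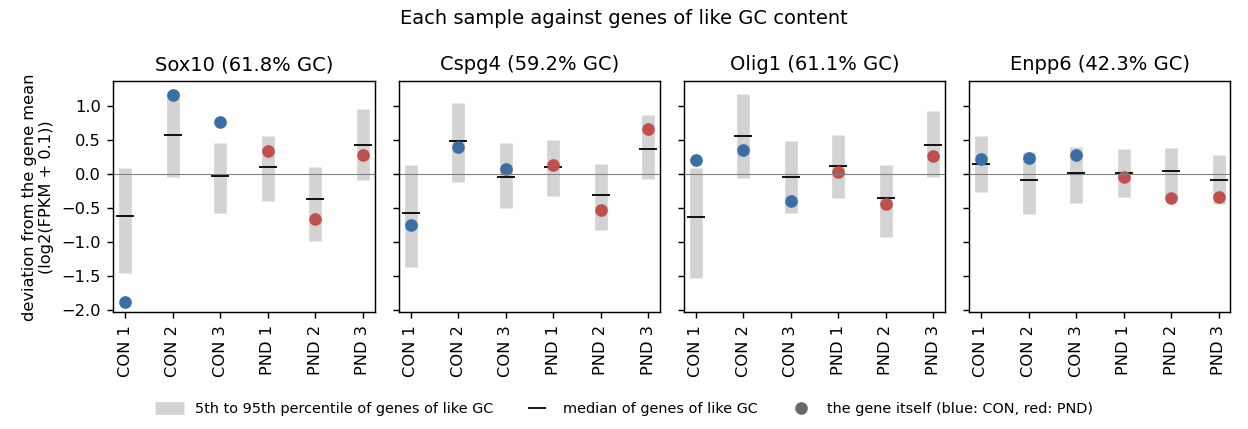
Deviation of a gene from its own mean over the 6 samples (vertical axis, log2(FPKM + 0.1)), for Sox10, Cspg4, Olig1 and Enpp6 (points, blue CON and red PND), beside genes with a GC content within 2 percentage points (black line: median, grey bar: 5th to 95th percentile). Sox10 lies below the grey bar in CON replicate 1 (-1.88) and above it in CON replicate 3 (0.76), Olig1 lies above it in CON replicate 1 (0.20), Enpp6 lies just below it in PND replicate 2 (-0.35), and Cspg4 stays within the bars.

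Gpr17 marks the stage between precursor and oligodendrocyte and encodes a G protein-coupled receptor that slows maturation (ENSMUSG00000052229, chromosome 18, 31942997 to 31949636). It stood at 4.44, 3.48 and 5.41 FPKM in PND and 3.31, 5.13 and 3.53 FPKM in CON. The highest sample was a PND sample and the lowest a CON sample, with much overlap between them. Between groups the log2 fold change was 0.16 (SE 0.24, interval -0.40 to 0.71, unadjusted p 0.528), and it ranged from 0.0055 (unadjusted p 0.983) without PND replicate 3 to 0.35 without CON replicate 2 when a sample was left out. The exons of Gpr17 overlap those of Lims2 on the opposite strand over 188 bases, and the use of strand in counting was not stated. Lims2 stood at 0.568 ± 0.377 FPKM (PND) and 0.719 ± 0.362 FPKM (CON).

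Enpp6 encodes a choline-specific phosphodiesterase that is switched on in newly formed oligodendrocytes and is used as their marker (ENSMUSG00000038173, chromosome 8, 46986887 to 47096762). It stood at 0.956, 0.758 and 0.77 FPKM in PND and at 1.18, 1.19 and 1.22 FPKM in CON. Every PND sample lay below every CON sample, and the PND mean of 0.828 ± 0.111 FPKM differed by -30.8% from the CON mean of 1.2 ± 0.0254 FPKM (SD, n = 3). The log2 fold change was -0.49 (SE 0.23, interval -1.02 to 0.04), with an unadjusted p of 0.0652 and a limma adjusted p of 1 over all genes. The exact two-sided permutation p was 0.1, the smallest this design allows. The groups also stayed apart under the 4 alternatives that can change the order of the samples, namely quantile normalization, median centring, GC correction and voom. The test reached an unadjusted p of 0.0177 without the intensity trend of limma and 0.0338 with voom on estimated fragments, and in the other 15 of the 17 alternative fits it ranged from 0.0552 to 0.149.

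Enpp6 rested on few fragments. The samples held on average 46.3 fragments in PND and 58.4 in CON, and at the latter number counting alone gives an error of 13.1%. The 3 CON values varied by 2.12%, which is less than that counting error, and the PND values by 13.4%. Its transcript has a GC content of 42.3%, a range in which the medians of the 2321 like genes deviated by at most 0.15 on the log2 scale in any sample. Enpp6 itself deviated by -0.05, -0.35 and -0.33 in PND and by 0.22, 0.24 and 0.28 in CON.

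Bmp4 encodes the ligand that holds precursors back (ENSMUSG00000021835, chromosome 14, 46383520 to 46390669). It was close to the limit of detection with 0.265, 0.033 and 0.194 FPKM in PND and 0.139, 0.384 and 0.145 FPKM in CON. Scaled by depth, the values were whole multiples of the lowest one to within 0.0325, namely 9, 1 and 7 in PND and 4, 12 and 4 in CON. If the lowest is a single fragment, the PND samples held 17 fragments in all and the CON samples 20. The estimate from depth and the annotated exon length was lower, with 0.585 to 7.03 fragments per sample, so the fragment numbers of single genes hold only roughly. The highest and the lowest value differed 11.6-fold, and the log2 fold change was -0.33 (SE 0.54, interval -1.58 to 0.93, unadjusted p 0.557), and -0.64 or -0.070 with a pseudocount of 0.01 or 1.

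Bcas1 is expressed from the differentiating stage on and encodes a protein of early myelinating and mature oligodendrocytes (ENSMUSG00000013523, chromosome 2, 170346991 to 170427845). It stood at 22.4, 25.5 and 23.4 FPKM in PND and 21, 27.9 and 26.1 FPKM in CON. It was the steadiest member, with a coefficient of variation of 10.5% over the 6 samples, and rested on 593 to 857 fragments. The log2 fold change was -0.06 (SE 0.13, interval -0.38 to 0.25, unadjusted p 0.652). Without CON replicate 1 both CON samples left were above PND, with a log2 fold change of -0.18 and an unadjusted p of 0.147.

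**Figure D3:**
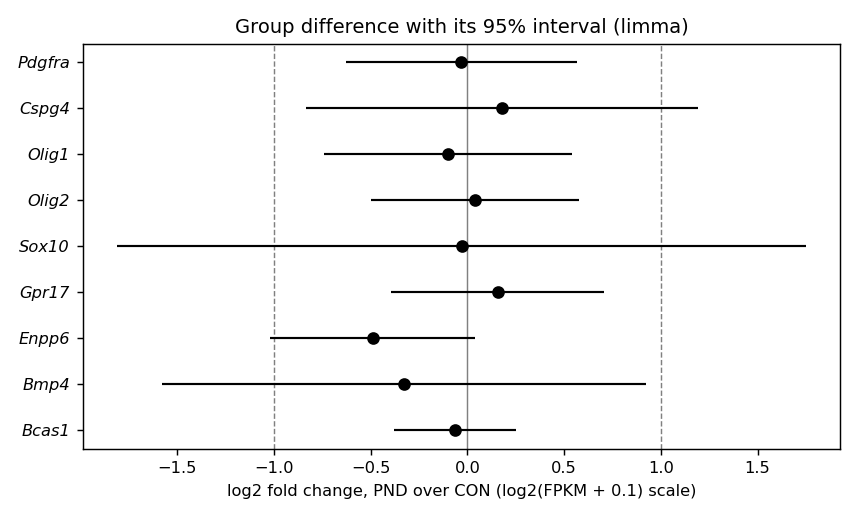
Log2 fold change of PND over CON (horizontal axis, log2(FPKM + 0.1) scale) with 95% intervals from limma, for the 9 genes. All intervals hold 0, the narrowest is that of Bcas1 (-0.38 to 0.25) and the widest that of Sox10 (-1.81 to 1.75), and dashed lines mark -1 and 1.

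The intervals set what the comparison could see. For 5 members, Pdgfra, Olig1, Olig2, Gpr17 and Bcas1, the 95% interval lay wholly between -1 and 1, so that a doubling or a halving fell outside it. For the other 4, Cspg4, Sox10, Enpp6 and Bmp4, the interval reached past -1 or 1.

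Extreme values fell in both groups. PND replicate 2 and CON replicate 1 each held the lowest value of 4 members, and CON replicate 2 held the highest value of 4 members. The mean of the standardized log2 levels was 0.335, -0.92 and 0.245 in PND replicates 1 to 3 and -0.544, 0.963 and -0.079 in CON replicates 1 to 3. Among 12316 other genes with at least 1 FPKM, those most like this mean over the 6 samples were Dlgap2, Stoml1, Elp5, Mrps7 and Tenm2, with Pearson r from 0.991 to 0.998. A correlation of 0.95 or more was reached by 147 genes. These 5 genes had GC contents between 52.4% and 56.5%. With only 6 points per gene, shared by all genes, these are descriptions and carry no test.

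The gene most like a single member was Pcdhgc3 for Cspg4 (r = 0.999), Pcnx for Olig1 (0.982) and Kcnt2 for Olig2 (0.989). For Sox10 it was Dexi (0.999), for Gpr17 Men1 (0.995), for Bmp4 Coa7 (0.997) and for Bcas1 Ccl27a (0.991). For Enpp6 it was E230020A03Rik (0.982), at 4.88, 4.03 and 3.79 FPKM in PND and 5.82, 5.97 and 5.65 FPKM in CON.

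The wider lineage was read from lists of other genes. Of 16 further precursor markers, all of them tested, 9 were higher and 7 lower in PND with a median log2 fold change of 0.05, and 0 reached an unadjusted p below 0.05. Without PND replicate 1, and likewise without PND replicate 3, 1 of them passed the cut-off. C1ql1, a secreted C1q-like protein, had the smallest p of this list, with 0.253 ± 0.157 FPKM in PND and 0.472 ± 0.11 FPKM in CON (unadjusted p 0.0999). Lhfpl3 came next with a log2 fold change of 0.37 and an unadjusted p of 0.132. Of 16 genes of committed and newly formed oligodendrocytes 14 were tested, 8 higher and 6 lower, with a median of 0.03 and none (0) below 0.05. The smallest p-values there were those of Cnksr3, a scaffold protein, with 0.32 and 0.207, and of Rras2, a small GTPase, with -0.23 and 0.322.

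The mature oligodendrocyte and myelin genes had more point estimates below than above 0. Of 18 genes 14 were lower and 4 higher in PND, and the median log2 fold change was -0.21, against 0.01 over all genes tested. Over all genes 52.4% had a log2 fold change above 0. An unadjusted p below 0.05 was reached by 3 lower genes and 1 higher gene of the list, against 3.13% of all genes, and 1 passed the cut-off, against 1.33%. Car2, the cytosolic carbonic anhydrase of oligodendrocytes, stood at 18.3, 19.6 and 20.1 FPKM in PND and 24.2, 31.8 and 30.3 FPKM in CON, which gives -0.56 (SE 0.13) on the log2 scale and an unadjusted p of 0.00333. Ppp1r14a, an inhibitor of myosin phosphatase, passed the cut-off with 2.25 ± 1.01 against 4.45 ± 0.589 FPKM and an unadjusted p of 0.0167. For both genes the limma adjusted p was 1 and the groups did not overlap. Opalin, a membrane protein of myelinating cells (-0.79, unadjusted p 0.0291), was the other lower gene, and Apod, a lipid-binding lipocalin (0.56, unadjusted p 0.0379), the higher one. The number of genes of this list past the cut-off was 0 without PND replicate 2, CON replicate 2 or CON replicate 3 and with a pseudocount of 1, and 2 without PND replicate 1 or CON replicate 1. The median of the list ran from -0.22 to -0.15 over the fits on all samples and from -0.37 to -0.10 when a sample was left out. The summed level of the list was 406 to 480 FPKM in PND and 461 to 511 FPKM in CON.

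**Figure D4:**
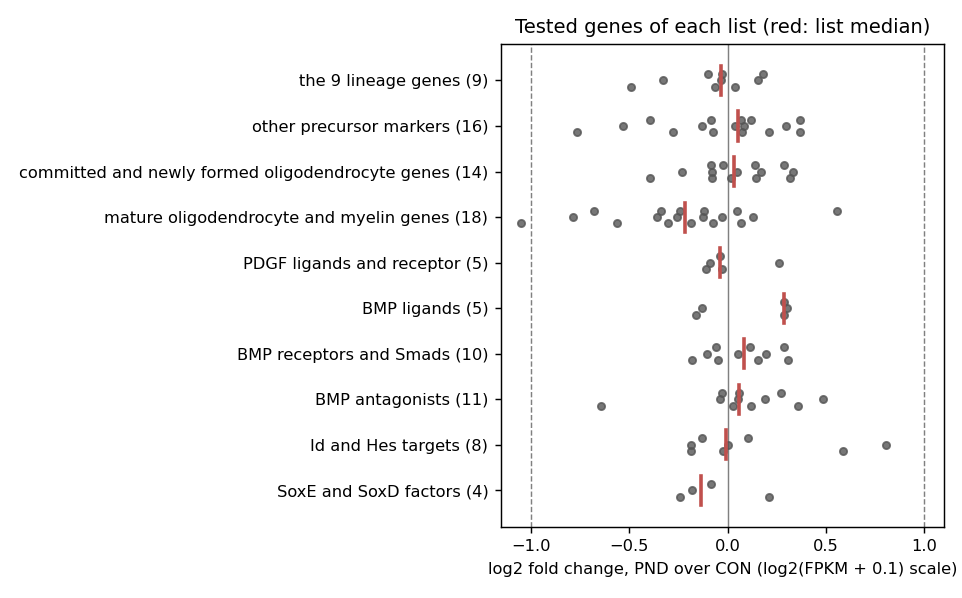
Log2 fold change of PND over CON (horizontal axis, log2(FPKM + 0.1) scale) for each tested gene (grey points) of the 9 lineage genes and of 9 related lists, with the list median as a red bar and the number of tested genes in brackets. The mature oligodendrocyte list has its median at -0.21 and 1 gene past -1, and the medians of the precursor and committed lists lie at 0.05 and 0.03.

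The signals that act on the precursor were examined next. The PDGF ligands and the beta receptor, 5 genes, had a median log2 fold change of -0.04 and no p below 0.05 (0 of 5). Pdgfc had the smallest p (log2 fold change -0.11, unadjusted p 0.598), followed by Pdgfb (0.26 and 0.608). Of the other BMP ligands 3 of 5 were higher, with a median of 0.29, and none (0) reached 0.05. This median ran from 0.15 to 0.31 over the fits on all samples and from -0.0029 to 0.36 when a sample was left out. Bmp2 was at 1.62 ± 0.132 FPKM in PND and 1.31 ± 0.183 FPKM in CON (unadjusted p 0.212), and its groups did not overlap. Bmp5 had a log2 fold change of 0.30 and an unadjusted p of 0.374. Both ligands were measured well above Bmp4.

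On the receiving side, the 10 BMP receptors and Smads had a median of 0.08, and 0 of them reached 0.05. The smallest p-values were those of Smad5 (log2 fold change 0.31, unadjusted p 0.183) and Smad1 (0.20 and 0.218), the Smads that BMP receptors phosphorylate. Of 11 BMP antagonists 8 were higher, with a median of 0.06 and 0 below 0.05. Fstl1, a follistatin-like secreted protein, stood at 5.08 ± 0.0883 FPKM in PND and 3.98 ± 0.722 FPKM in CON (unadjusted p 0.0767), without overlap. Chrdl1, a chordin-like antagonist, had a log2 fold change of -0.64 and an unadjusted p of 0.131. The Id and Hes genes, targets of BMP and Notch signalling that oppose the OLIG factors, had a median of -0.01 over 8 genes, and 0 reached 0.05. Id3 (log2 fold change 0.80, unadjusted p 0.163) and Hey1 (-0.19 and 0.245) had the smallest p-values of that list. Among 4 further Sox factors, Sox9 had a log2 fold change of -0.24 (unadjusted p 0.195) and Sox8, the close relative of Sox10, one of 0.21 (0.416), with a list median of -0.14 and 0 below 0.05.

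Markers of other cells were read in the same fit. Of 8 astrocyte markers 5 were higher and 3 lower in PND, with a median log2 fold change of 0.037. Gfap was higher in PND (21.8 ± 3.65 against 13.6 ± 1.1 FPKM, unadjusted p 0.00294) and Aqp4 lower (24 ± 2.14 against 30.8 ± 3.85 FPKM, unadjusted p 0.0275). The sum of the 8 was 231 to 270 FPKM in PND and 238 to 249 FPKM in CON. Of 8 microglia markers 5 were higher and 3 lower in PND, with a median log2 fold change of 0.095. P2ry12 was lower (5.49 ± 1.36 against 9.27 ± 1.5 FPKM, unadjusted p 0.00767), and C1qa came next with a log2 fold change of 0.59 and an unadjusted p of 0.23. The sum of the 8 was 53.9 to 63.2 against 51.4 to 67.4 FPKM. The 8 neuron markers summed to 786 to 864 FPKM in PND and 816 to 905 FPKM in CON, and the smallest p-values were those of Syt1 (-0.07, unadjusted p 0.526) and Tubb3 (0.22, unadjusted p 0.6). Of 7 ventricular zone and ependymal markers 4 were higher and 3 lower in PND, with a median log2 fold change of 0.24. Dlx1, a lower one, was past the cut-off, at 0.149, 0.262 and 0.121 FPKM in PND and 1.79, 0.521 and 0.734 FPKM in CON (unadjusted p 0.00517). It did not pass with a pseudocount of 1, and was not among the genes of at least 1 FPKM. Ccdc153 came next in that list with a log2 fold change of 0.65 and an unadjusted p of 0.237, and the sums were 14.2 to 18.7 and 12.8 to 22.1 FPKM. For Gfap, Aqp4, P2ry12 and Dlx1 the limma adjusted p was 1. Sox10 is also made by Schwann cells, and of the markers of that cell Prx was at most 0.04 FPKM and Ncmap at most 0.0887 FPKM in any sample. Egr2, which neurons express as well, had a log2 fold change of -0.20 and an unadjusted p of 0.43.

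**Figure D5:**
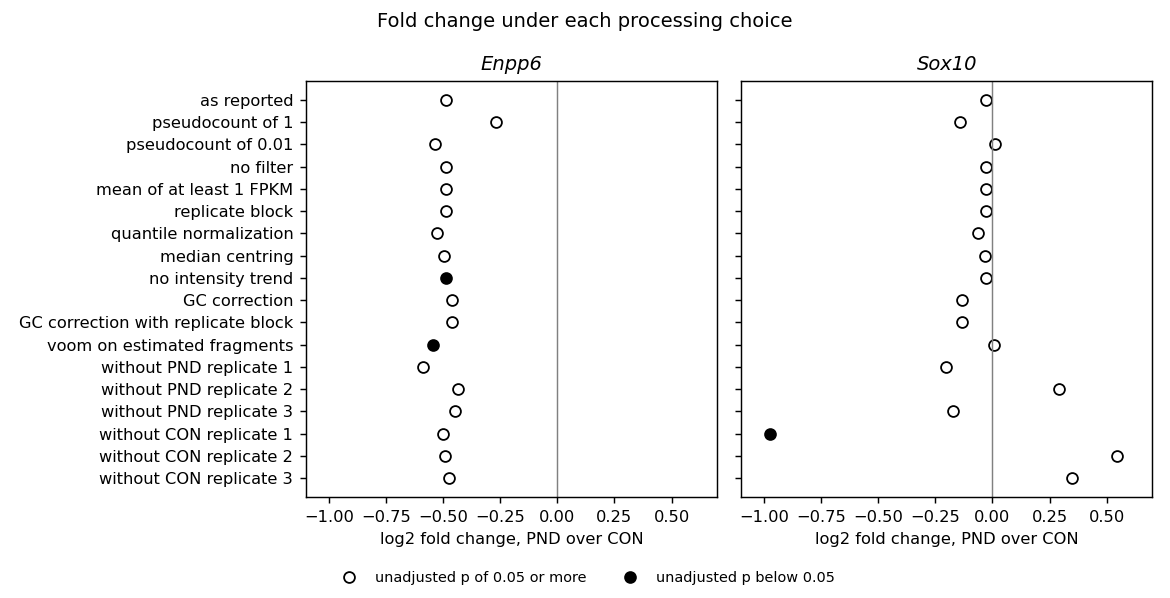
Log2 fold change of PND over CON (horizontal axes) of Enpp6 and Sox10 under each processing choice, with filled points where the unadjusted p was below 0.05. Enpp6 stays between -0.59 and -0.27 throughout, and Sox10 runs from -0.97 without CON replicate 1 to 0.54 without CON replicate 2.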

How the data were processed

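The authors removed ribosomal RNA, sequenced on an Illumina instrument, aligned with HISAT2, counted fragments per gene with StringTie, applied TMM scaling and deposited FPKM, 1 column per animal. The submitters' processing notes also list Bowtie 0.12.2 and mouse builds, with no role. The build used for mRNA is not given in the sources used here, nor is the use of strand. Identifiers were matched to GENCODE M21 (GRCm38) for 20866 of 21006 genes, which gave symbols, coordinates, merged exon length, and the GC content of the longest transcript.

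PND and CON were compared with limma 3.58.1 (R 4.3.3; lmFit, eBayes with intensity trend, Benjamini-Hochberg) on log2(FPKM + 0.1) over genes averaging 0.1 FPKM or more, with no covariate. These fold changes understate the change of low genes. The fit was tested on simulated data. Effective depth came from the steps of FPKM times exon length. At each sample's estimate, 41.6% to 44.8% of low values lay within 0.05 of a whole number, so fragment numbers are approximate. The alternatives were other pseudocounts, filters and scalings, no trend, a replicate block, GC correction (loess per sample), voom and leaving out each sample.

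Named genes were the 9 members, the genes of each related list past the cut-off or with the 2 smallest p-values, and those most alike across samples, of which the one for Pdgfra is not reported here. Opalin, Apod, Slc17a7, Gad2, Lims2, Prx and Ncmap fall outside this rule and were chosen after their values were seen. Members, lists and tests were chosen with earlier results of these data known. The lists were precursor, committed and mature oligodendrocyte genes, PDGF and BMP signalling, Id and Hes targets, Sox factors, and pericyte, fibroblast, Schwann cell, astrocyte, microglia, neuron and ventricular markers.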

Additional observations from a re-analysis of the deposited data

How the results depend on the processing

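No member passed the cut-off under any of the 17 alternatives. The number of members with an unadjusted p below 0.05, 0 as reported, was 1 without the intensity trend (Enpp6, log2 fold change -0.489), 1 with voom (Enpp6, -0.543) and 0 to 1 across the fits without a sample, the 1 being Sox10 without CON replicate 1. The cause was not tested. GC correction gave -0.205 for Olig1, 0.078 for Cspg4 and 0.101 for Gpr17, and Bmp4 was at -0.638 with a pseudocount of 0.01 and -0.070 with a pseudocount of 1. Among fits on all samples, Olig2 changed sign with GC correction, with and without the replicate block (-0.059 in each), and Sox10 with a pseudocount of 0.01 (0.011) and with voom (0.0061). When each sample was left out in turn, the log2 fold change ran from -0.197 to 0.261 for Pdgfra, -0.15 to 0.49 for Cspg4, -0.322 to 0.094 for Olig1, -0.119 to 0.19 for Olig2, -0.973 to 0.544 for Sox10, -0.624 to 0.105 for Bmp4 and -0.183 to 0.020 for Bcas1, so the sign of none of these 7 is settled by the data. Gpr17 ran from 0.0055 to 0.346 and Enpp6 from -0.586 to -0.436, without a change of sign. In the fit as reported, on all samples, the intervals of both held 0. They were -0.396 to 0.708 for Gpr17 and -1.02 to 0.0397 for Enpp6, so the sign of these genes is not settled either. Cspg4 and Bmp4 have no value with the filter of 1 FPKM, which they do not pass.

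Of all genes, 241 passed the cut-off. The count was 25 with a pseudocount of 1, which shrinks low values, and 240 to 402 without 1 sample. It was 59 when only genes of at least 1 FPKM were fitted, which leaves out the low genes. The labels link same-numbered samples by nothing but the number. Their deviations from the group means correlated by -0.049, -0.45 and 0.027, and those of differently numbered samples by -0.418 to 0.427. With 3 samples per group, these values cannot tell whether samples were paired. With the replicate block 226 genes passed the cut-off, 0 had an adjusted p below 0.05 and 361 an unadjusted p below 0.05, and no member changed its side of the threshold. Of the lists with 0 genes past the cut-off as reported, 1 gene passed for Id and Hes targets and for microglia markers without CON replicate 2, and for astrocyte markers without CON replicate 1. Few fragments lie behind Bmp4 (in its highest sample 7.03 from depth and exon length, or 12 from its steps) and behind Sox10 in CON replicate 1 (10.1). That library was no shallower than CON replicate 3, and the cause of its Sox10 value was not tested.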
